A study of Homo sapiens with 6 samples.

Results

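YAP1, WWTR1 (the gene of TAZ), the 4 TEAD transcription factors and 4 of their direct target genes, CCN1, CCN2, ANKRD1 and AMOTL2, were followed in U251 glioblastoma cells with and without CRISPR targeting of NUAK2. The 10 genes were chosen by name, with earlier results of these data known. All 10 were found by their NCBI gene identifiers among the 28395 genes of the count table. The libraries fell into 2 groups of 3. WT stands for U251MG cells, an established human glioblastoma line, and NUAK2-CR for U251MG cells carrying CRISPR-Cas9 and a guide against the kinase gene NUAK2. No treatment or time point separates the groups. By the methods, the CRISPR cells received the guide on a pair of lentiviral vectors, one with GFP and one with mCherry, and double-positive cells were sorted into plates and grown as clones. The labels name no clone, and they name no vector for the WT cells. Effects of the vectors, of sorting, of a clone and of the NUAK2 edit therefore cannot be told apart here. Nothing in the labels says that the 3 libraries of a group came from separate cultures, so the p-values measure the spread between libraries, which may be technical.

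The Hippo pathway is a kinase cascade that restrains growth. Its last kinases, LATS1 and LATS2, phosphorylate the coactivators YAP and TAZ and so hold them in the cytoplasm. Unphosphorylated YAP and TAZ enter the nucleus, where they cannot bind DNA themselves and act through the TEAD factors on genes such as CCN1, CCN2, ANKRD1 and AMOTL2. In glioblastoma the pathway is known for its part in growth and in the response of cells to matrix stiffness, and NUAK2 is itself a reported YAP target that acts back on LATS. RNA counts give the transcript levels of these genes and say nothing of the phosphorylation or location of their proteins.

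The WT libraries held 55574081, 39265279 and 35310946 counts, and the NUAK2-CR libraries 29648445, 31238672 and 33776712. Every WT library was thus deeper than every NUAK2-CR library, and WT replicate 1 was the deepest. A member's raw count in a library lay between 267 and 16863. Normalized counts are counts scaled to a common library size. For NUAK2 they came to 1926, 1457 and 1580.1 over the WT libraries, with 799, 961 and 849 over the NUAK2-CR libraries. Its RNA was thus lower in every NUAK2-CR library but was still present at 52.6% of the WT mean (log2 fold change -0.93, standard error 0.11, adjusted p = 1.8e-05, edgeR). This RNA level does not give the amount or activity of the NUAK2 kinase, which was not measured here. The paper reports deletion of NUAK2 in its CRISPR clones, by immunoblot and by qPCR. The tested neighbours of NUAK2 on chromosome 1 also had lower RNA. Of the 20 nearest, 12 were called lower (adjusted p under 0.05, edgeR) and 1 higher, beside 28.2% and 26.3% of all tested genes. The median log2 fold change was -0.42 over these 20 and -0.75 over the 10 nearest. The part of this regional shift in the NUAK2 value was not tested. Of 8 glioblastoma and astroglial markers, all were detected in every library and 7 were called lower in NUAK2-CR, beside 28.2% of all tested genes. Their summed level, in normalized counts, was 334036 to 370815 for WT libraries and 146830 to 153589 for NUAK2-CR libraries. The 4 immune markers summed to at most 5.49 normalized counts in any library, with CD3E at 0 throughout, and the 4 epithelial markers to at most 27.2. For the 3 endothelial markers the sum was 17.2 to 31.2 in WT and 84.4 to 90.2 in NUAK2-CR, with none at 0 in every library. The part of these marker shifts in the results that follow was not tested. In bulk samples, fewer cells with a transcript and less transcript per cell cannot be told apart.

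Both coactivators, 3 of the 4 TEADs and 3 of the 4 targets had more RNA in NUAK2-CR than in WT, and no member had significantly less. At an adjusted p under 0.05 from edgeR's quasi-likelihood test over 14873 genes, 8 of the 10 genes were called, all 8 of them higher. By the same rule 54.5% of all tested genes were called in either direction, 26.3% higher and 28.2% lower. The 2 genes that missed the threshold were TEAD4 and AMOTL2. No member was called lower by edgeR or, at the same adjusted threshold, by DESeq2. None was lower at an unadjusted p under 0.05 (edgeR). The changes were moderate, with log2 fold changes from 0.36 to 1.25 among the called genes and a median of 0.60 over the 10, beside -0.01 over all genes tested. None of the 10 had, in addition, an absolute log2 fold change over 2, the stricter rule of the study, by edgeR, by DESeq2 or at an unadjusted p under 0.05. Of all tested genes, 4.72% did. At an absolute log2 fold change over 1, 2 members passed, WWTR1 and ANKRD1, against 13.9% of tested genes. Every NUAK2-CR library lay above every WT library for 9 of the 10 genes, all but AMOTL2. Over all genes tested, the groups did not overlap for 61.4%, and 29.8% lay higher in NUAK2-CR without overlap.

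**Figure D1:**
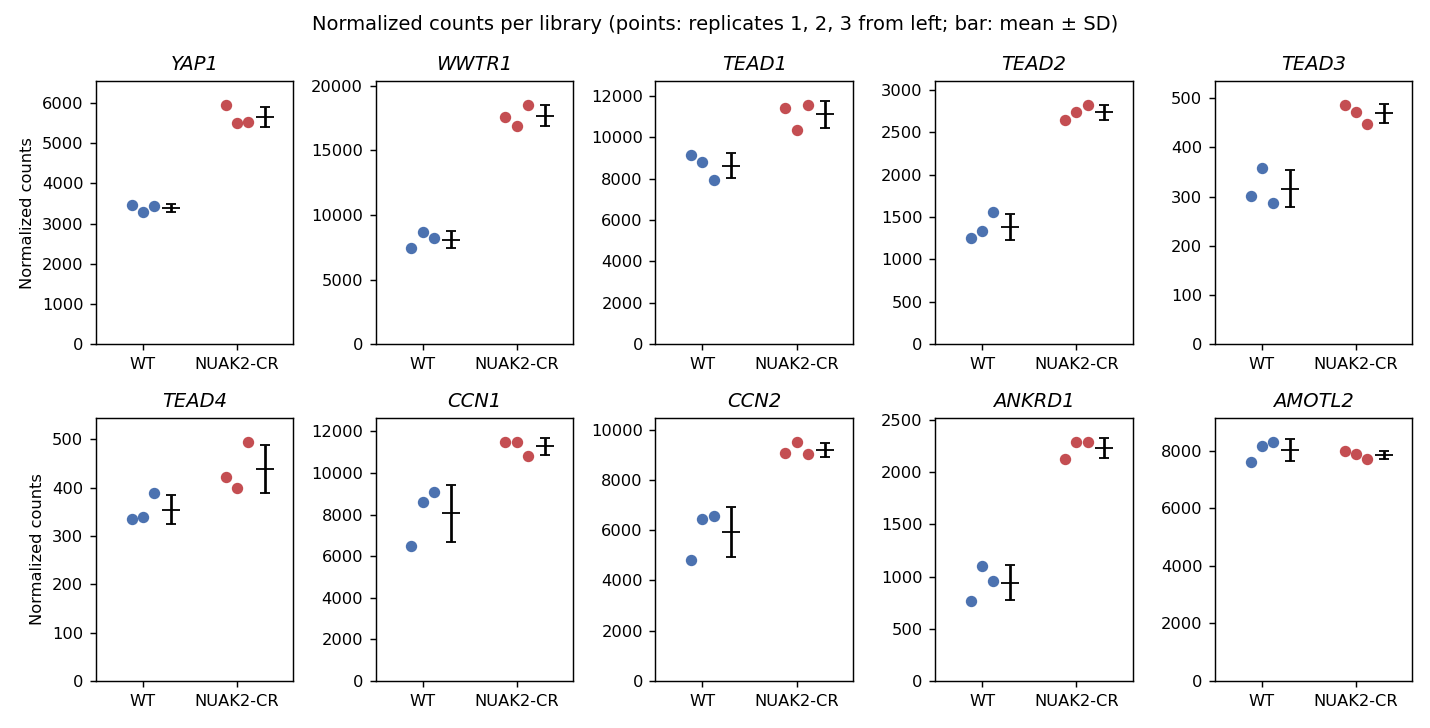
Normalized counts (vertical axis of each panel, from 0) of the 10 genes in the 3 WT (blue) and 3 NUAK2-CR (red) libraries, with points for replicates 1 to 3 from left to right and the mean ± SD (n = 3) in black beside them. The groups are apart for 9 genes and overlap for AMOTL2. WT replicate 1 is the lowest point for CCN1, CCN2 and ANKRD1, and also for WWTR1, TEAD2, TEAD4 and AMOTL2.

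YAP1 (gene 10413, chromosome 11 of GRCh38, 102110447 to 102233424) encodes YAP. The WT libraries 1 to 3 held 3457, 3276 and 3446 normalized counts of it, and the NUAK2-CR libraries 1 to 3 held 5950.2, 5503 and 5519. The groups were far apart beside their spread, with means of 3393 ± 102 and 5657 ± 254 (SD, n = 3), a 1.67-fold rise. The log2 fold change was 0.74 with a 95% interval of 0.59 to 0.88 (adjusted p = 1.54e-06, edgeR). It varied from 0.71 to 0.76 over the 13 alternatives tried, and its adjusted p was under 0.05 in each.

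WWTR1 (gene 25937, chromosome 3, 149517235 to 149724788) encodes TAZ, the partner of YAP with which it shares its TEAD-binding role. WT libraries held 7409.6, 8669 and 8211 normalized counts and NUAK2-CR libraries 17612, 16892 and 18513. All NUAK2-CR values were about double the WT values, with a ratio of means of 2.18 and a log2 fold change of 1.13 (95% interval 0.96 to 1.29, adjusted p = 1.16e-07, edgeR). Its antisense gene WWTR1-AS1 held 54 counts over all 6 libraries against 72520 for WWTR1; counting was at default settings, which do not use strand, so reads of the 2 cannot be told apart where they overlap.

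Since both coactivators rose, the ratio of WWTR1 to YAP1 counts within each library, which does not depend on scaling, was compared. It was 2.14, 2.65 and 2.38 in WT and 2.96, 3.07 and 3.35 in NUAK2-CR. Each NUAK2-CR library was thus more weighted to WWTR1 than any WT library, by 0.39 on the log2 scale. An exact two-sided permutation test gave p = 0.1, which is the smallest value that 3 libraries against 3 allow, so this test could not reach the threshold.

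The TEADs are 4 paralogous DNA-binding factors that recruit YAP and TAZ. TEAD2 (gene 8463, chromosome 19, 49340595 to 49362416), known for its expression in early neural development, rose most, from 1257, 1330.3 and 1558 normalized counts per WT library to 2639.9, 2744 and 2823 per NUAK2-CR library. The lowest NUAK2-CR value was well above the highest WT value, and the log2 fold change was 0.99 (95% interval 0.80 to 1.17, adjusted p = 1.09e-06, edgeR). TEAD2 shares a few exonic bases with CD37 and overlaps DKKL1, both on the opposite strand, which held 528 and 66 counts over all libraries against 11645 for TEAD2.

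TEAD1 (gene 7003, chromosome 11, 12674421 to 12944737), a broadly expressed member, stood at 9139, 8790.1 and 7956 normalized counts in the WT libraries against 11400.2, 10364 and 11561 in the NUAK2-CR libraries. The groups did not overlap, but the rise was smaller, at 1.29-fold (log2 fold change 0.36, 95% interval 0.20 to 0.53, adjusted p = 0.00126, edgeR). TEAD3 (gene 7005, chromosome 6, 35473597 to 35497079), best known from placenta, had 302, 359 and 287 in WT and 486, 473 and 448 in NUAK2-CR. All NUAK2-CR libraries were higher, by 1.48-fold on the means (log2 fold change 0.57, 95% interval 0.30 to 0.84, adjusted p = 0.00182, edgeR).

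TEAD4 (gene 7004, chromosome 12, 2959397 to 3040676), known from the trophectoderm and from muscle, reached 335, 339.6 and 389 normalized counts in WT libraries, against 422, 399 and 495 in NUAK2-CR libraries. The highest WT value came within a few percent of the lowest NUAK2-CR value. The log2 fold change was 0.31 (95% interval 0.03 to 0.59), with an adjusted p of 0.0549 (edgeR) that missed the threshold. Leaving out WT replicate 3 gave 0.38 (adjusted p = 0.0476) and leaving out NUAK2-CR replicate 2 gave 0.37 (adjusted p = 0.0494), so single libraries decide on which side of the threshold TEAD4 falls.

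Levels of different genes were compared per length, as counts scaled by effective library size and by exon length (TMM-scaled CPM per kilobase of exon). On this scale TEAD1 and TEAD2 carried most TEAD RNA, and TEAD3 and TEAD4 little. The summed level of the 4 TEADs was 40.6, 40.9 and 40.8 in WT and 61.2, 59.2 and 63.8 in NUAK2-CR. It was close to constant within WT and higher in each NUAK2-CR library, by 0.59 on the log2 scale (exact permutation p = 0.1, the smallest possible).

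The share of each TEAD in the summed level was compared next. TEAD2 held 27.7%, 29.1% and 34.1% of the summed level in WT and 38.6%, 41.5% and 39.6% in NUAK2-CR. TEAD1 held 56.1%, 53.5% and 48.6% in WT and 46.4%, 43.6% and 45.2% in NUAK2-CR. The 2 groups did not overlap for either gene, so the 2 main TEADs were closer to equal in NUAK2-CR. TEAD4 made up 10.2% ± 0.851 of WT and 8.36% ± 0.646 of NUAK2-CR TEAD RNA (SD, n = 3), also without overlap. For TEAD1, TEAD2 and TEAD4 the exact two-sided permutation p was 0.1, the smallest possible, and 0.133 after adjustment over the 4 shares. TEAD3 made up 6.78% ± 0.794 of WT and 6.69% ± 0.477 of NUAK2-CR TEAD RNA (SD, n = 3), a difference within the spread of the replicates (exact permutation p = 0.9).

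**Figure D2:**
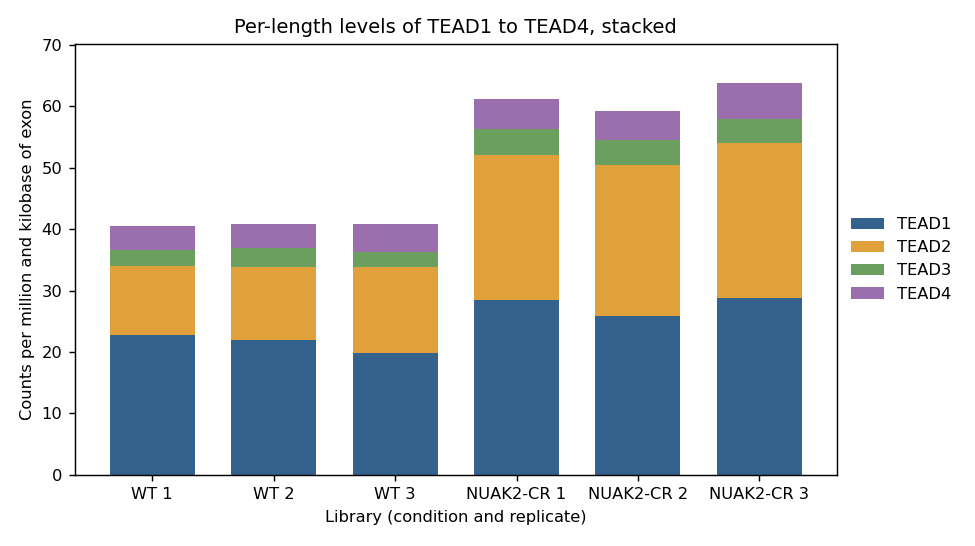
Stacked per-length levels (CPM per kilobase of exon, axis from 0) of TEAD1 to TEAD4 in each of the 6 libraries. The stacks reach 40.6 to 40.9 in WT and 59.2 to 63.8 in NUAK2-CR, and the TEAD2 segment grows from at most 13.9 to at least 23.6.

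The 4 targets encode 2 secreted matricellular proteins, a nuclear and sarcomeric ankyrin-repeat protein and a junctional scaffold. The TEADs recognise the bases CATTCC, read as GGAATG on the other strand. RefSeq promoter windows (GRCh38.p14) held 7 of the 10 genes, and the 250 bases before each annotated start were searched for these letters on both strands. These 7 genes had 10 windows, and a match was present in 4 of them, those of CCN2, ANKRD1, YAP1 and 1 of AMOTL2. Of all 35116 windows, 11.9% held a match. WWTR1, TEAD2 and TEAD3 had windows without these letters; windows of CCN1, TEAD1 and TEAD4 were not used here. The 4 windows with a match are shown because 3 belong to targets with unlike changes. They are given 5′ to 3′ on the gene's strand, each ending just before the start, with the searched letters in capitals.

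CCN2 (chr6:131951373-131951622, minus strand): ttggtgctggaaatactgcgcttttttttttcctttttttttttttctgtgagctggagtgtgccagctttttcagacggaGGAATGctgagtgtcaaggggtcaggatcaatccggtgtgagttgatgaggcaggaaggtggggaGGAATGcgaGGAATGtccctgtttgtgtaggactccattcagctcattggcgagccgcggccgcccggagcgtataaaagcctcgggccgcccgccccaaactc
ANKRD1 (chr10:90921088-90921337, minus strand): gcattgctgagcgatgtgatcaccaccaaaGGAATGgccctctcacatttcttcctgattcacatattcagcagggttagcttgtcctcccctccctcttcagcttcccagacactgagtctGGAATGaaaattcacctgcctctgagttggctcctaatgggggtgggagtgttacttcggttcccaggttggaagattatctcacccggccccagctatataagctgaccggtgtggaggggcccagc
AMOTL2 (chr3:134374448-134374697, minus strand): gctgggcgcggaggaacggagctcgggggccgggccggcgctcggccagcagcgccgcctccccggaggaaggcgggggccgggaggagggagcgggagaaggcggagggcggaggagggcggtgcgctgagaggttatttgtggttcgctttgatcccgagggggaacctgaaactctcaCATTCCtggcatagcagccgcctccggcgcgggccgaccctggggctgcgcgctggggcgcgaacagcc
YAP1 (chr11:102110197-102110446, plus strand): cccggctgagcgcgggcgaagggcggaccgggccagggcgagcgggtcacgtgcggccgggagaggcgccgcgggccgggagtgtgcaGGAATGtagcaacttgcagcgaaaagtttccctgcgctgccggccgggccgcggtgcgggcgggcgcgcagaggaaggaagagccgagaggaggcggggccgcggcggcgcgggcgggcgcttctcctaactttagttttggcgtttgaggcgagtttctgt

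CCN2 held 3 matches, all as GGAATG, whose first bases lie 169, 104 and 95 bases before the start. Only 0.0826% of all windows held 3 or more, and 0.94% held 2 or more, as ANKRD1 did at 220 and 128 bases. AMOTL2 held 1 match, as CATTCC, at 69 bases, in one of its 2 windows, and YAP1 held 1 at 162 bases. These matches are letters in a window, and no binding was measured here.

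CCN2 (gene 1490, chromosome 6, 131948176 to 131951372), also called CTGF, encodes a secreted protein of the matrix and a standard readout of YAP and TAZ. Normalized counts came to 4802, 6434 and 6552 over the WT libraries, against 9068, 9529.8 and 9022 over the NUAK2-CR libraries. The NUAK2-CR libraries lay close together and above all WT libraries, of which replicate 1 was the lowest. The log2 fold change was 0.64 (95% interval 0.41 to 0.86, adjusted p = 0.000219, edgeR), and 0.51 without WT replicate 1. CCN1 (gene 3491, chromosome 1, 85580761 to 85583950), also called CYR61, encodes an integrin ligand of the same family, with 6480.4, 8582 and 9091 in WT and 11506, 11498 and 10819 in NUAK2-CR. WT replicate 1 was again the lowest and the groups did not overlap. The log2 fold change was 0.49 (95% interval 0.26 to 0.72, adjusted p = 0.0019, edgeR), and 0.36 without WT replicate 1.

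ANKRD1 (gene 27063, chromosome 10, 90912096 to 90921087), also called CARP, responds to mechanical load in muscle and showed the largest change of the 10 genes. WT libraries held only 765, 1105 and 956 normalized counts, NUAK2-CR libraries 2126, 2293 and 2287. Every NUAK2-CR value was far above the highest WT value, with a ratio of means of 2.37. The log2 fold change was 1.25 (95% interval 1.00 to 1.50, adjusted p = 1.73e-06, edgeR), and 1.12 without WT replicate 1. In WT these 3 targets varied more than in NUAK2-CR. So did WWTR1, TEAD1, TEAD2, TEAD3 and AMOTL2 relative to their means, but not YAP1 or TEAD4. The SD of ANKRD1 was 18.1% of its mean in WT, the highest of the 10 genes.

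AMOTL2 (gene 51421, chromosome 3, 134355345 to 134375417) encodes an angiomotin, a scaffold that binds YAP and activates LATS, and is both a target and a negative regulator. Its normalized counts, 7604, 8149 and 8313 over the WT libraries, compare with 7973, 7886 and 7710.1 over the NUAK2-CR libraries. All 3 NUAK2-CR values lay within the WT range, and the log2 fold change was -0.03 (adjusted p = 0.723, edgeR). The 95% interval of -0.17 to 0.11 did not reach the intervals of CCN1, CCN2 or ANKRD1. Counts of each of these 3 targets were also divided by AMOTL2 counts within each library, a comparison added after the values were seen. For CCN2 this ratio was 0.632, 0.790 and 0.788 over the WT libraries, against 1.14, 1.21 and 1.17 over the NUAK2-CR libraries. The ratio was higher in NUAK2-CR without overlap for all 3, by 0.68 (log2) for CCN2, 0.53 for CCN1 and 1.29 for ANKRD1. Each exact two-sided permutation p was 0.1, the smallest possible, also after adjustment over the 3 ratios. Since AMOTL2 hardly differed between the groups, these ratios nearly repeat the fold changes above and add no independent support.

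**Figure D3:**
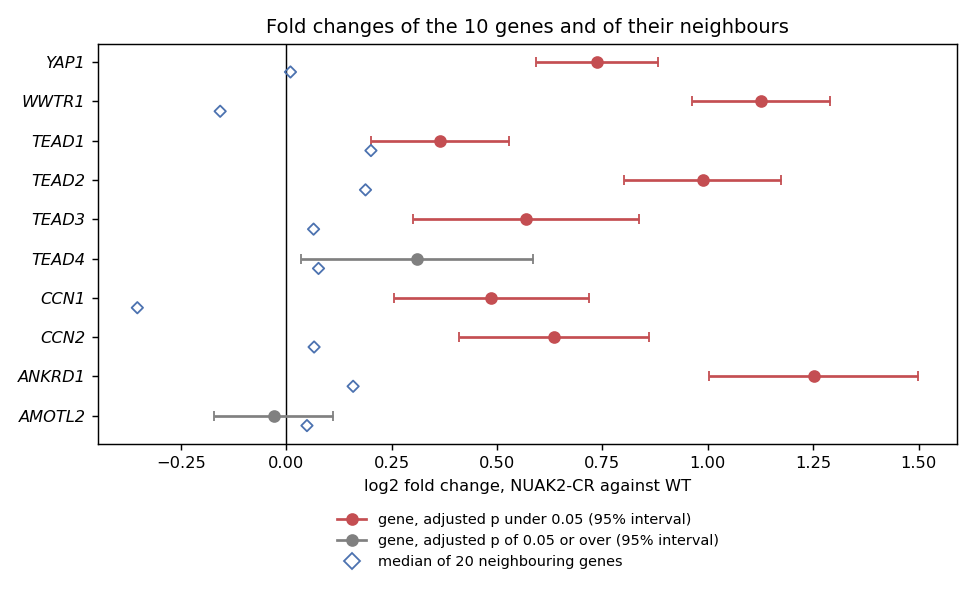
Log2 fold change (horizontal axis) of each gene in NUAK2-CR against WT, with its 95% interval, in red where the adjusted p was under 0.05, and the median of the 20 tested genes nearest to it on its chromosome as open diamonds. The diamonds lie between -0.35 and 0.20, while WWTR1, TEAD2 and ANKRD1 lie near or above 1, and AMOTL2 sits at -0.03.

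Per length, the order of the genes was not the same in the 2 groups. In WT, CCN2 was highest at 67.6 ± 11.2 (SD, n = 3) CPM per kilobase, followed by CCN1 at 58.0 ± 9.98 (SD, n = 3), and these 2 overlapped. AMOTL2 came next at 33.0 ± 1.53, then WWTR1 at 25.8 ± 2.03, TEAD1 at 21.5 ± 1.52, YAP1 at 14.3 ± 0.429, ANKRD1 at 14.0 ± 2.54 and TEAD2 at 12.4 ± 1.40 (SD, n = 3). YAP1, ANKRD1 and TEAD2 overlapped as neighbours in this order. TEAD4 at 4.15 ± 0.353 and TEAD3 at 2.76 ± 0.331 (SD, n = 3) were the lowest. In NUAK2-CR, CCN2 and CCN1 stayed first, WWTR1 followed at 56.4 ± 2.59 and ANKRD1 at 33.3 ± 1.41, ahead of AMOTL2 at 32.3 ± 0.551, which its range overlapped. YAP1 at 23.9 ± 1.07 and TEAD2 at 24.5 ± 0.819 (SD, n = 3) also overlapped. Dividing by the longest transcript in place of all exons put CCN1 before CCN2 and TEAD2 before ANKRD1 in WT, and AMOTL2 before ANKRD1 in NUAK2-CR.

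The genes around each member on its chromosome were also examined. The median log2 fold change of the 20 nearest tested genes was 0.01 at YAP1, -0.16 at WWTR1, 0.07 at CCN2 and 0.16 at ANKRD1. Around CCN1 it was -0.35, with 10 of the 20 genes called lower beside 28.2% of all tested genes, while CCN1 itself was higher. Over the 10 genes nearest to CCN1 it was -0.13, and over those nearest to ANKRD1 -0.039. TEAD1 lay among genes with a median of 0.20, of which 9 of 20 were called higher beside 26.3% of all tested genes, and its own value was 0.36. The part of this shift in the TEAD1 value was not tested. Around TEAD2, whose own value was 0.99, the median was 0.19, and 0.28 over the 10 nearest genes. Of the 20, 6 were called higher and 1 lower, beside 26.3% and 28.2% of all tested genes. The part of this shift in the TEAD2 value was not tested either. Around TEAD3, TEAD4 and AMOTL2 the medians were 0.06, 0.08 and 0.05.

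Other reported targets of YAP and TAZ were called in both directions. A list of 17 further genes of a published YAP signature, all tested, had 10 called higher, 3 lower and 4 not called, with a median log2 fold change of 0.34. The shares over all tested genes, 26.3% higher and 28.2% lower, apply to each list described here. NT5E, the adenosine-producing enzyme CD73, went from 892 ± 50.4 normalized counts to 2191 ± 83.8 (SD, n = 3), with a log2 fold change of 1.30 (adjusted p = 4.01e-08, edgeR). RBMS3, an RNA-binding protein, had 1.16, ASAP1, an ARF regulator of adhesions, 1.07, ARHGEF17, a guanine nucleotide exchange factor, 0.73, and MYOF, a membrane repair protein, 0.71. CCDC80, a matrix protein, went the other way, at 5454 ± 285 normalized counts and then 3585 ± 139.6 (SD, n = 3), and its log2 fold change was -0.61.

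A second list of 16 targets named in other settings had 15 genes tested, of which 9 were called higher, 4 lower and 2 not called, with a median of 0.48. Beside 28.2% of all tested genes, the count of lower genes was near the background, and the count of higher genes was above its 26.3%. The lists were written with earlier results of these data known, so these counts are description and not independent support. BIRC3, an inhibitor of apoptosis that lies close to YAP1 on chromosome 11, had 1.16, the growth regulator MYC 0.99 and the cyclin CCND1 0.88. The Notch ligand JAG1 had -1.10 and the mitotic survivin gene BIRC5 -1.02. All of these passed the test.

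Among paralogs of the targets, the angiomotins diverged. AMOT fell from 8221, 9234 and 8867 normalized counts to 3479, 3234 and 3382, a log2 fold change of -1.38 (95% interval -1.54 to -1.23, adjusted p = 1.06e-08, edgeR). AMOTL1 rose from 3129, 2928 and 2769 to 4906, 5002 and 4806, a log2 fold change of 0.74. Thus the 3 angiomotin genes covered a fall, a rise and, for AMOTL2, a difference whose interval spans 0. CCN3, a CCN family member, rose by a log2 fold change of 0.84, and ANKRD23, an ankyrin-repeat relative of ANKRD1, had -0.01 with few counts (95% interval -0.56 to 0.54). CCN4, CCN5, CCN6 and ANKRD2 had too few counts to be tested. In all, 2 of the 4 tested paralogs were called higher and 1 lower, beside 26.3% and 28.2% of all tested genes.

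The VGLL proteins compete with YAP and TAZ for TEADs. VGLL4, a repressor of YAP signalling, averaged 2957 ± 74.4 normalized counts in WT against 3747 ± 221 in NUAK2-CR (SD, n = 3), with a log2 fold change of 0.34 that passed the test. VGLL2 had 0.88 at a low level, VGLL3 had 0.30 and missed the threshold (95% interval -0.06 to 0.66), and VGLL1 was listed at 0 in all libraries, which allows up to 3 counts in each. Of the 3 tested, 2 were called higher, beside 26.3% of all tested genes, and the median was 0.34; with 3 genes this share says little.

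Of 27 regulators of the Hippo pathway, 17 were called higher, 5 lower and 5 not called, beside 26.3% higher and 28.2% lower over all tested genes, with a median log2 fold change of 0.36. LATS1 averaged 1585 ± 55.7 normalized counts in WT against 2114 ± 168 in NUAK2-CR (SD, n = 3) and rose by 0.41 on the log2 scale. LATS2, itself a YAP target, had a log2 fold change of -0.12 (95% interval -0.29 to 0.05) and was not called. The atypical cadherins DCHS1 and FAT4, ligand and receptor upstream of the cascade, had 1.87 and 1.41. WTIP, an Ajuba-family inhibitor of LATS, had 1.39, the kinase MAP4K4, an activator of LATS, 1.24, and WWC3, a KIBRA relative, 0.92. Both activators and inhibitors of the cascade were thus among the genes that rose. LATS2 and PTPN14 stand both in the signature and among the regulators, AMOT and AMOTL1 both among the paralogs and the regulators, and AJUBA both among the other targets and the regulators, so the counts are not independent of each other.

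**Figure D4:**
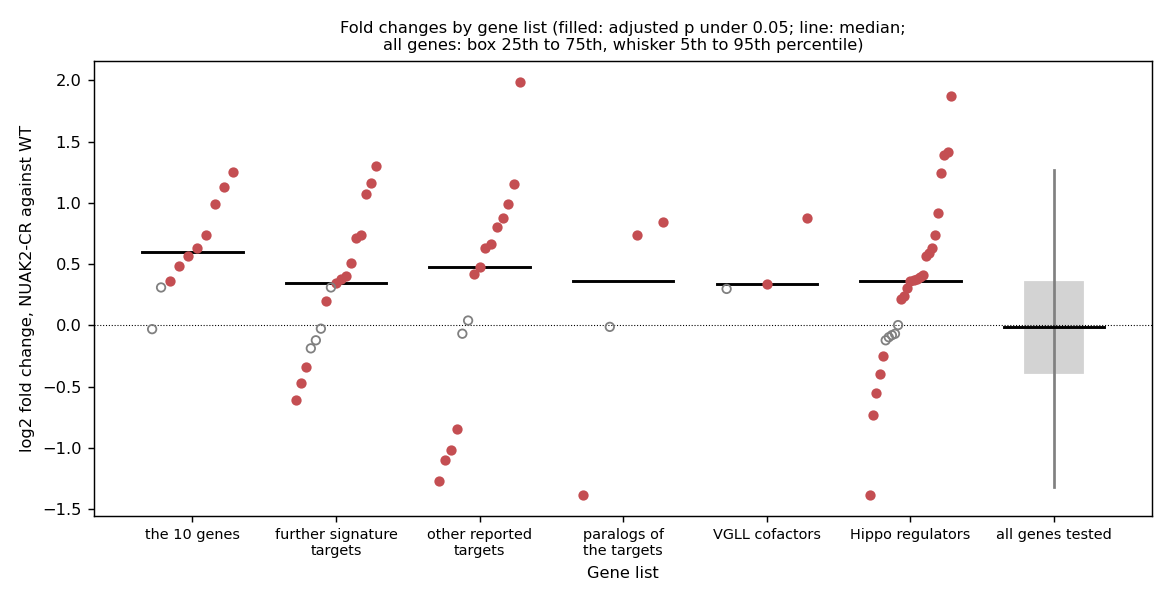
Log2 fold change (vertical axis) of each tested gene in the 10-gene set and in 5 lists of pathway genes, filled where the adjusted p was under 0.05, with the median of each list as a line. All genes tested are shown at the right as a box from the 25th to the 75th percentile (-0.39 to 0.35) with whiskers from the 5th to the 95th; list medians lie between 0.34 and 0.60 and each of the larger lists holds genes that fell.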

How the data were processed

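RNA of 3 WT and 3 NUAK2-CR samples was made into stranded poly(A) libraries and sequenced as paired reads, with 29648445 to 55574081 counts a library. Per the submitters' notes and the methods, the authors used bcl2fastq, Trimmomatic, HISAT2 on hg38 and featureCounts at default settings and deposited raw counts per gene; the featureCounts default does not use strand, and versions and gene annotation are not given in the sources used here. NCBI identifiers were matched to symbols for 27745 of 28395 genes with RefSeq (GRCh38.p14), and exon lengths came from GENCODE release 44, the same build.

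Counts were fitted with edgeR 4.0.16 in R 4.3.3 (filterByExpr, TMM, quasi-likelihood F test, condition only, prior count 0.125) over 14873 genes with Benjamini-Hochberg adjustment at 0.05. The study's DESeq2 design is an alternative here (version 1.42.0). Intervals are 95% from the moderated t distribution. Exact permutation tests used scipy 1.17.1. The edgeR and DESeq2 fits were tried on simulated counts with known changes. A count of 0 allows up to 3 counts, counting error only. Other alternatives were RLE and library-size scaling, genes with a single count or more kept, a minimum of 10 counts per library, each library left out, a replicate block and a prior count of 2.

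The members and lists were chosen with earlier results of these data known. Genes named from a list are the up to 6 largest called changes averaging 100 or more normalized counts in the higher group, plus LATS1, LATS2 and the tested VGLL and paralog genes. One gene that this rule names is not reported here.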

Additional observations from a re-analysis of the deposited data

How the results depend on the processing

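Of the 10 genes, 8 were called higher under 9 of 12 alternative fits and 9 under the others, where TEAD4 joined them; none was called lower under any. TEAD4 was called with a replicate block (0.31, adjusted p = 0.0446), and its log2 fold change was 0.21 to 0.38 with single libraries left out. Without WT replicate 1 the log2 fold change was also smaller for WWTR1 (1.07), TEAD2 (0.93), TEAD3 (0.54) and TEAD4 (0.28). It was larger for YAP1 (0.76) and TEAD1 (0.41). A shared replicate number was not treated as a pairing, because deviations of same-numbered libraries from their group means correlated at only 0.04, -0.04 and 0.05; the block changed no other call among the 10 genes and NUAK2. A threshold of 1 on the absolute log2 fold change gave 2 members in place of 0. The TEAD3 share difference, -0.08 percentage points, changed sign to 0.23 without division by length and ranged from -0.40 to 0.36 with single libraries left out. ANKRD23, at -0.01, ranged from -0.20 to 0.17 with single libraries left out. By longest transcript 6 of 10 genes kept their place in the WT order and 8 of 10 in the NUAK2-CR order. With 5 neighbours on each side the medians moved to -0.75 at NUAK2, -0.13 at CCN1, -0.039 at ANKRD1 and 0.12 at AMOTL2. At TEAD2 the median was then 0.28 and at WWTR1 -0.21. List counts stayed within 1 gene of those given. No scaling moved the median of all genes by more than 0.0087. With 3 libraries a group, the exact tests cannot fall below 0.1.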
